A study of Danio rerio with 8 samples.

Results

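Apolipoproteins are the proteins that coat the lipid particles of the blood, and 10 zebrafish genes were followed here: the high-density lipoprotein genes apoa1a, apoa1b and apoa2, the apolipoprotein A-IV genes apoa4a, apoa4b.1, apoa4b.2 and apoa4b.3, the apolipoprotein B genes apoba and apobb.1, and mttp, the microsomal triglyceride transfer protein. The members were taken by gene symbol, through the RefSeq accession that the array gives each probe. Of the 10 genes, 8 had a probe, with 9 probes in all, out of 39749 probes on the array. The genes apoa4a and apoa4b.3 had no probe matched to them and were not analysed here. All 9 probes were well above background on all 8 arrays, so no member was lost to the filter on dim probes, which kept 29935 probes and 17263 named genes.

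The series is a 1-colour Agilent array study of a zebrafish model of Zellweger syndrome, the inherited failure of peroxisome assembly. One group was pex2-/- fish carrying the allele called typeC, in 4 pools, and the other was their pex2+/+ siblings, in 4 pools. Each pool mixed equal RNA of 3 fish aged 5 weeks, extracted from whole bodies, and every pool had its own array. The sources used here do not give the sex or clutch of the fish, so the p-values measure the spread between pools and nothing wider. No probe on the array was named pex2, so the targeted gene could not be checked.

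Lipoproteins are built mainly in the liver and the gut. Apolipoprotein B is the large scaffold that stays with its particle for life, and the transfer protein encoded by mttp, working with the protein disulfide isomerase p4hb, loads lipid onto it in the endoplasmic reticulum. Apolipoproteins A-I, A-II and A-IV are small and exchangeable. The first pair are the main proteins of high-density lipoprotein, and A-IV is known as a protein of the absorbing gut that is secreted on chylomicrons after a fat meal. In the zebrafish embryo the yolk syncytial layer makes several of them too.

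Signals are given as log2 values relative to the 75th percentile of their own array, so 0 is the signal at that percentile. A difference is the pex2 mutant mean minus the sibling mean, from limma fitted over all kept probes, and a gene was called at a Benjamini-Hochberg adjusted p under 0.05. The groups differed widely in these arrays: 57.6% of the named genes were called, 29.9% higher and 27.8% lower in the mutants, and in 54.6% the pools of the genotypes did not overlap. Against this background, 3 of the 8 measured members were called, 2 higher and 1 lower, and 5 did not pass. The median difference over the 8 members was -0.05, against 0.01 over all named genes. A level of one probe cannot be set against that of another probe, so members are compared through their differences only. In whole-body RNA, fewer cells of a type and less RNA per cell cannot be told apart.

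The overall brightness of the arrays moved with genotype. The 75th percentile of the raw intensity ran from 454 to 499 in the 4 mutant pools and from 611 to 839 in the 4 sibling pools, with no overlap. Between 67.3% and 75.6% of the probes were well above background on mutant arrays, and between 74.5% and 76.3% on sibling arrays. A difference of scaled values is therefore relative to the other probes of the same array. With the intensities left unscaled, an alternative chosen after seeing the data, the median difference over all probes was -0.43, against 0.11 with scaling. Unscaled, 16072 of the 29935 kept probes were called, and 16.3% of these were higher in mutants. With scaling, 17534 were called, and 59.2% of these were higher. Most unscaled calls over all probes were thus lower. The unscaled counts of lower genes below stand against that background, and not against the 27.8% of scaled values. Of 60 genes picked beside the members, most of them named below, 11 changed direction unscaled, and 16 of the 26 called higher lost that call. Some genes named below are outside these 60.

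**Figure D1:**
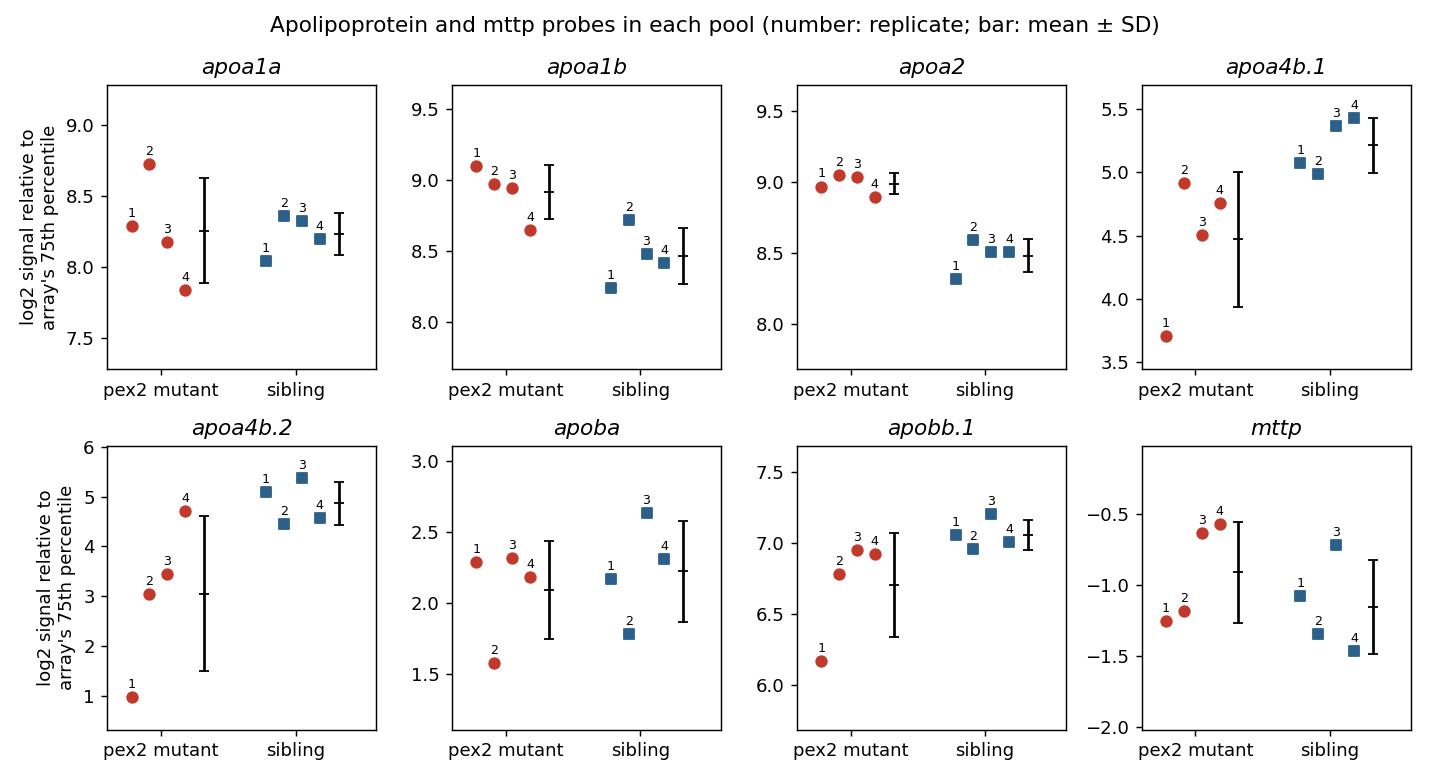
Log2 signal relative to the array's 75th percentile (vertical axes, each panel with its own range) of the brightest probe of each measured member, in the 4 pex2 mutant pools (circles, left) and the 4 sibling pools (squares, right); numbers are replicates and bars are the mean ± SD. The mutant pools lie above every sibling pool for apoa2 and below every sibling pool for apoa4b.1 and apobb.1, and the 4 mutant pools of apoa4b.2 spread between 0.97 and 4.72.

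Of the high-density lipoprotein genes, apoa2 and apoa1b were called higher and apoa1a did not pass. apoa2, the gene of the second most abundant high-density lipoprotein protein in mammals, read 8.97, 9.05, 9.04 and 8.89 in mutant pools 1 to 4, against 8.31, 8.59, 8.50 and 8.51 in sibling pools 1 to 4. All mutant pools were above all sibling pools. The difference was 0.51 ± 0.09 (SE), or 1.42-fold higher in mutants, with a limma adjusted p of 0.00206. apoa2 was also tight among the mutants: the SD of 0.07 between the 4 mutant pools stood at the 5.81th percentile of all named genes, whose median mutant SD was 0.217.

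apoa1b, an apolipoprotein A-I gene, read 9.10, 8.97, 8.94 and 8.65 in mutant pools, against 8.24, 8.72, 8.48 and 8.41 in sibling pools. Mutant pools 1 to 3 were above every sibling pool, and mutant pool 4 lay below sibling pool 2. The difference was 0.45 ± 0.14, 1.37-fold higher in mutants, with a limma adjusted p of 0.0216. This call was lost without mutant replicate 1 (0.39, adjusted p = 0.0572), without sibling replicate 1 (0.38, adjusted p = 0.0564) and without sibling replicate 4 (0.44, adjusted p = 0.0537).

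Both rises belong to the scaled values. Quantile scaling left a difference of 0.28 for apoa2 and 0.24 for apoa1b, with adjusted p of 0.0145 and 0.0447. Before scaling, the apoa2 probe read 227300, 240900, 260100 and 236600 intensity units in mutant pools, against 267000, 238300, 262800 and 222400 in sibling pools, so the genotypes overlapped. The unscaled apoa1b probe read 248700, 228300, 243000 and 199800 in mutant pools, against 253500, 260900, 258000 and 208400 in sibling pools, again overlapping. Unscaled, the differences were -0.04 for apoa2 (limma adjusted p = 0.826) and -0.09 for apoa1b (adjusted p = 0.599). No spot on these arrays was marked as saturated. Sibling pool 1 nonetheless had the brightest array, with a 75th percentile of 839. It also had the lowest scaled sibling values of apoa2 (8.31) and apoa1b (8.24). Whether the signal of such bright probes follows array brightness in proportion was not tested. With quantile scaling, the difference of both genes stood above the median difference of all probes, 0.11. Scaled and unscaled values place a gene equally far from that median by construction, since scaling shifts all probes of an array alike.

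apoa1a, the other apolipoprotein A-I gene, did not pass the test on scaled values. It read 8.29, 8.73, 8.18 and 7.84 in mutant pools, against 8.05, 8.37, 8.33 and 8.20 in sibling pools. The mutant pools surrounded the sibling pools, with pool 2 highest and pool 4 lowest. The difference was 0.02 ± 0.18 (adjusted p = 0.918), and its 95% interval ran from -0.40 to 0.45. Unscaled, apoa1a was lower in mutants by a log2 difference of -0.52 (limma adjusted p = 0.0349).

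The paralogs apoa1a and apoa1b were set against each other within each array, where the scaling value cancels. The mutant-minus-sibling difference of apoa1a minus that of apoa1b was -0.43 ± 0.14 (exact two-sided permutation p = 0.0571, adjusted over the 5 pairs tested 0.0952). The difference of apoa1a minus that of apoa2 was -0.48 ± 0.16 (exact permutation p = 0.0286, which is the smallest p that 4 against 4 pools can give, adjusted 0.0952). Neither pair passed at an adjusted p of 0.05. After adjustment over the 5 pairs, even the smallest p passes only where other pairs reach it too. Not passing is therefore no sign that the 2 members of either pair responded alike. With each of the 8 pools left out in turn, the first ran from -0.56 to -0.38 and the second from -0.62 to -0.38, with adjusted permutation p of 0.0476 to 0.143. In 1 of the 8, without mutant replicate 2, both passed.

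Of the 4 apolipoprotein A-IV genes, 2 were measured, and apoa4b.1 was called lower while apoa4b.2 did not pass. apoa4b.1 read 3.71, 4.91, 4.50 and 4.76 in mutant pools, against 5.08, 4.99, 5.36 and 5.43 in sibling pools. Every mutant pool was below every sibling pool, mutant pool 1 by the widest margin and mutant pool 2 by the narrowest. The difference was -0.74 ± 0.26, 1.68-fold lower in mutants, with a limma adjusted p of 0.0356. Unscaled, it was -1.29 (limma adjusted p = 0.00390). The call depended on the setting, and was lost with quantile scaling (-0.42, adjusted p = 0.237), without mutant replicate 3 (-0.76, adjusted p = 0.0658) and without sibling replicate 1 (-0.79, 0.0561), 3 (-0.69, 0.0806) or 4 (-0.67, 0.0874), while without mutant replicate 1 it held at -0.49 (adjusted p = 0.0340).

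apoa4b.2 had the largest difference of the 8 members and also the largest spread. It read 0.97, 3.05, 3.45 and 4.72 in mutant pools, against 5.08, 4.45, 5.36 and 4.56 in sibling pools. Mutant pools 1 to 3 were below every sibling pool, and mutant pool 4 lay within the sibling range. The difference was -1.82 ± 0.69 with a 95% interval from -3.41 to -0.23, and its limma adjusted p of 0.0507 did not pass. Unscaled, it was -2.36 and passed (limma adjusted p = 0.0182). The SD of 1.56 between the 4 mutant pools stood at the 98.7th percentile of all named genes. The adjusted p passed without mutant replicate 4 (-2.38, adjusted p = 0.00976), and without mutant replicate 1 the difference was -1.13 (adjusted p = 0.0532).

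The test did not separate the responses of apoa4b.1 and apoa4b.2. The difference of apoa4b.1 minus that of apoa4b.2 was 1.08 ± 0.61 (exact permutation p = 0.114, adjusted 0.143). These tandem copies are related in sequence, and binding of one transcript to the probe of the other was not tested.

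Markers of the absorbing gut were measured beside the A-IV genes. Of 14 tested enterocyte markers, 12 were lower in mutants, against 27.8% of all named genes, and 2 did not pass. None of the 14 differences was above 0, their median was -2.04, and unscaled all 14 were lower. Without mep1a.2, which passed the filter on dim probes through the sibling arrays alone, 11 of 13 were lower. The summed level of these markers, on the linear scale relative to the 75th percentile, was 42.4 to 119 in mutant pools and 293 to 340 in sibling pools. That sum is made up mostly of fabp2 and fabp6, the second of which differed by -2.30 ± 0.63 (limma adjusted p = 0.0133). The defining marker fabp2, the intestinal fatty acid binding protein, differed by -2.44 ± 0.51 (limma adjusted p = 0.00390). The amino acid transporter slc6a19b differed by -2.91 ± 0.30 (adjusted p = 1.62e-04), the brush-border protease mep1a.1 by -2.75 ± 0.32 (adjusted p = 2.78e-04) and the microvillar cadherin cdhr2 by -1.14 ± 0.12 (adjusted p = 2.01e-04, -0.68 with normexp background correction). The paralog mep1a.2 had no mutant array well above background, which bounds it at least 2.22-fold lower in mutants on this scale (adjusted p = 5.47e-05), while normexp, which lifts dim values, gave -0.33. Such a bound sets the sibling mean against, on each mutant array, the probe's own signal or the lowest signal of any probe well above background, whichever is higher. The part of the gut markers in the A-IV values was not tested.

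The pools did not keep the same order in these measures. Relative to the mean of the siblings, the enterocyte markers averaged -2.29, -2.40, -1.72 and -1.33 in mutant pools 1 to 4. apoa4b.2 stood at -3.89, -1.82, -1.42 and -0.15, and apoa4b.1 at -1.51, -0.30, -0.71 and -0.46. Mutant pool 1 was lowest for both A-IV genes and mutant pool 2 for the enterocyte markers, while mutant pool 4 was nearest to the siblings for the enterocyte markers and for apoa4b.2.

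**Figure D2:**
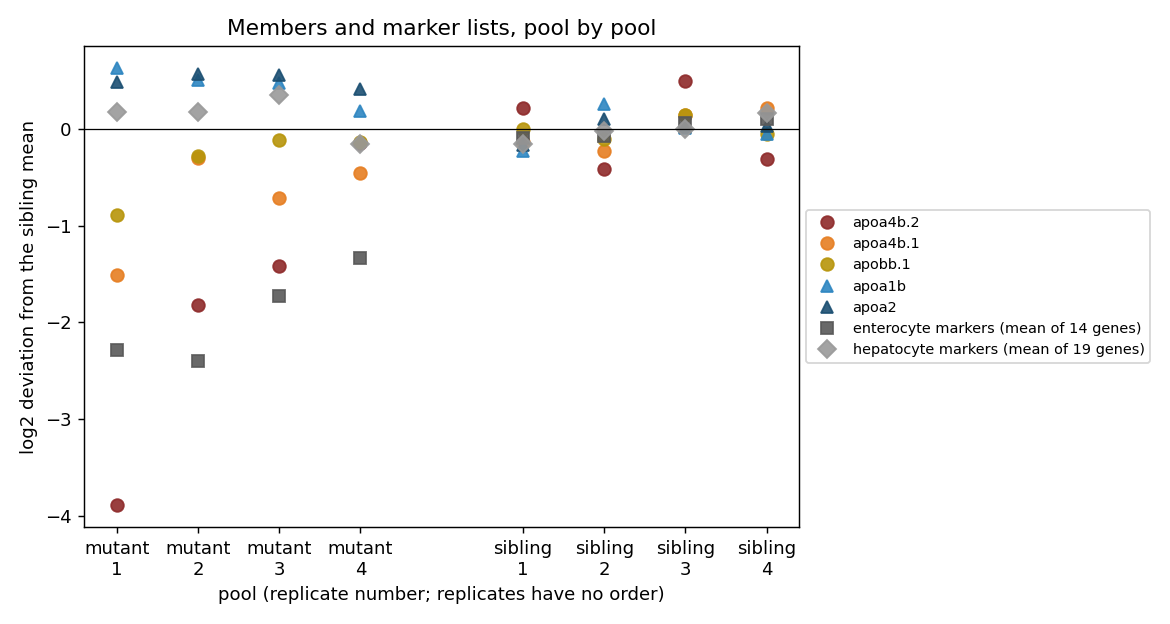
Log2 deviation from the sibling mean (vertical axis) of 5 members and of the mean of 14 enterocyte and 19 hepatocyte markers in each pool (horizontal axis, mutant pools left, sibling pools right). apoa4b.2 ranges from -3.89 to -0.15 among mutant pools while apoa2 stays between 0.41 and 0.57. The hepatocyte mean includes hpxa, which differed by -7.09 and was above background in 2 of 4 mutant pools.

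The scaffold genes did not pass. apobb.1, an apolipoprotein B gene, read 6.17, 6.78, 6.95 and 6.92 in mutant pools, against 7.06, 6.95, 7.20 and 7.0 in sibling pools. All mutant pools lay below the lowest sibling pool, pool 3 only narrowly and pool 1 by the widest margin. The difference was -0.35 ± 0.18 with a 95% interval from -0.76 to 0.06 (limma adjusted p = 0.121). A second apobb.1 probe, designed to a predicted transcript, gave -0.33 ± 0.19 (adjusted p = 0.168). On that probe the genotypes overlapped, since mutant pool 4 at 6.79 was above sibling pool 2 at 6.77. Unscaled, apobb.1 was lower in mutants by -0.90 (adjusted p = 0.0102). Of the measured members, 3 of 8 had genotypes that did not overlap on the brightest probe, apoa2, apoa4b.1 and apobb.1, against the 54.6% of all named genes.

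apoba, the other apolipoprotein B gene among the members, read 2.29, 1.58, 2.31 and 2.18 in mutant pools, against 2.17, 1.78, 2.63 and 2.31 in sibling pools. The genotypes overlapped throughout, and pool 2 was the lowest of each group. The difference was -0.13 ± 0.22 with a 95% interval from -0.64 to 0.38 (limma adjusted p = 0.636). The difference of apoba minus that of apobb.1 was 0.22 ± 0.30 (exact permutation p = 0.571, adjusted 0.571). A further apolipoprotein B gene, apobb.2, is not a member and was named after its value was seen. It differed by 0.21 ± 0.46 (limma adjusted p = 0.707).

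mttp, which loads lipid onto apolipoprotein B, read -1.25, -1.18, -0.63 and -0.57 in mutant pools, against -1.08, -1.34, -0.72 and -1.46 in sibling pools. The groups overlapped. The difference was 0.24 ± 0.22 with a 95% interval from -0.26 to 0.75 (limma adjusted p = 0.373), and unscaled it was -0.30 (adjusted p = 0.392). The difference of apobb.1 minus that of mttp was -0.59 ± 0.17 (exact permutation p = 0.0571, adjusted 0.0952). With each of the 8 pools left out in turn it ran from -0.71 to -0.51, with adjusted permutation p of 0.0476 to 0.143, passing in 1 of the 8, without mutant replicate 2.

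**Figure D3:**
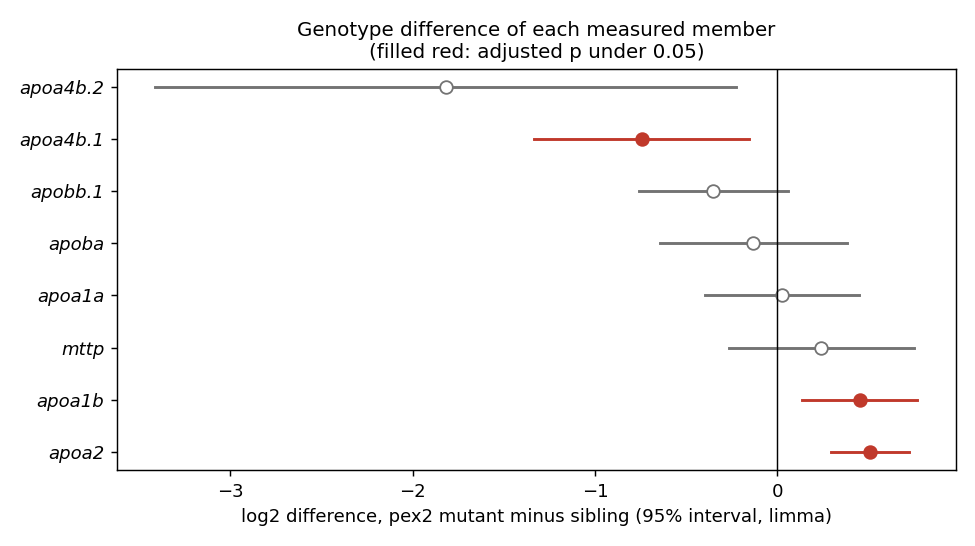
Mutant minus sibling log2 difference (horizontal axis) of each measured member with its 95% limma interval; filled red marks an adjusted p under 0.05. apoa2 and apoa1b lie to the right of 0, apoa4b.1 to the left, and the interval of apoa4b.2 is the widest, from -3.41 to -0.23.

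Hepatocyte markers were measured beside apoa2 and apoa1b. Of 19 tested markers, 11 were higher in mutants (29.9% of all named genes), 2 were lower (27.8%) and 6 did not pass, with a median of 0.57. Unscaled, 3 were higher and 4 lower, with a median of 0.03. Their summed level was 933 to 1124 in mutant pools and 723 to 941 in sibling pools, so the groups overlapped slightly. That sum is made up mostly of fabp10a, tfa, serpina1 and rbp4, none of which passed. Relative to the sibling mean, the 19 markers averaged 0.18, 0.18, 0.36 and -0.15 in mutant pools 1 to 4. They averaged -0.15 to 0.17 in sibling pools. The marker hpxa pulls this average down in every mutant pool. It read -1.41, -4.86, -0.37 and -4.48 in mutant pools 1 to 4, against a sibling mean of 4.31. An average without hpxa was not computed, so the mutant averages understate the other markers. In mutant pools 1 to 4 apoa2 stood at 0.49, 0.57, 0.56 and 0.41, and apoa1b at 0.63, 0.51, 0.48 and 0.18. Fibrinogen genes were among those that rose, fga by 1.50 ± 0.19 and fgg by 0.88 ± 0.12 (limma adjusted p = 3.34e-04 and 4.63e-04), the second with an unscaled 0.33 that did not pass. The vitronectin gene vtna rose by 0.96 ± 0.10 (adjusted p = 1.79e-04) and the inter-alpha-trypsin inhibitor chain itih2 by 0.97 ± 0.12 (adjusted p = 3.78e-04). The defining marker fabp10a, the liver fatty acid binding protein, differed by 0.18 ± 0.16 (adjusted p = 0.352), and unscaled it was lower in mutants at -0.36 (adjusted p = 0.0469). The 2 lower markers, named after their values were seen, were the haem scavenger hpxa (-7.09 ± 0.96, adjusted p = 5.04e-04, above background in 2 of 4 mutant pools) and serpina1l (-1.33 ± 0.25, adjusted p = 0.00235). The part of hepatocyte RNA in the apoa2 and apoa1b values was not tested.

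By profile over the 8 arrays, the genes most like apoa2 among 14719 named genes were bcl11bb, a zinc finger transcription factor, arsh, an arylsulfatase, and plat, tissue plasminogen activator, each at a root mean square distance of 0.04 on the log2 scale. Scaled, their differences were 0.49, 0.52 and 0.54, and unscaled -0.06, -0.03 and -4.8e-05, none of which passed. For apoa4b.2 they were the acidic chitinase genes chia.1 and chia.2, at 0.30 and 0.33, and the fatty acid binding protein fabp1b.1, at 0.31. The chitinases differed by -1.80 ± 0.60 for chia.1 (limma adjusted p = 0.0300) and -2.11 ± 0.54 for chia.2 (adjusted p = 0.0100), and fabp1b.1 by -1.93 ± 0.51 (adjusted p = 0.0122). The chia.1 call was lost with quantile scaling (adjusted p = 0.0796), without mutant replicate 2 or 3, and without any 1 of the 4 sibling pools.

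Several members sit together in the genome. In the gene order of the RefSeq table for assembly GRCz12tu, apoa4b.1, an unnamed locus, apoa4b.3, another unnamed locus, apoa4b.2, apoeb, apoc1, apoc4, apoa2 and apoc2 follow each other, a run of 10 genes of which 8 had a kept probe. Of these 8, 2 were higher and 3 lower in mutants, a share close to the 57.6% of all named genes called, and unscaled neither of the 2 higher genes, apoa2 and apoc1, passed. The genes named here were chosen after their values were seen. Next to apoa2, apoc4 differed by -1.21 ± 0.36 (limma adjusted p = 0.0206) and apoc2, the activator of lipoprotein lipase, by -0.13 ± 0.18 (adjusted p = 0.554; with quantile scaling 0.30, and unscaled -0.67 with adjusted p = 0.0351). apoc1 differed by 1.26 ± 0.29 (adjusted p = 0.00618, 0.64 with normexp, and unscaled 0.72 with adjusted p = 0.0743). Its probe was well above background in 3 mutant pools and only 1 sibling pool, so the size of this difference is poorly measured. apoeb differed by 0.22 ± 0.17 (adjusted p = 0.283), by 0.66 with quantile scaling (adjusted p = 0.0227), and by -0.32 unscaled (adjusted p = 0.154). The unnamed locus beside apoa4b.1 likewise had no mutant array well above background and lay at least 2.77-fold lower in mutants on this scale (adjusted p = 5.18e-04), against -0.37 with normexp. It passed the filter through the sibling arrays alone. No coordinates are given, because the array's own annotation names an older build.

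Among the other apolipoprotein genes, 2 of 12 tested were higher in mutants, 5 lower and 5 did not pass, with a median of 0.01. The share called was close to the 57.6% of all named genes. Unscaled, 0 were higher and 6 lower (limma, 2 higher at an unadjusted p under 0.05). apoea, an apolipoprotein E gene whose product is the ligand of receptors of the low-density lipoprotein family, differed by -1.88 ± 0.39 (limma adjusted p = 0.00371), 3.67-fold lower in mutants. The lipocalin genes apodb and apoda.1 differed by -1.33 ± 0.28 (adjusted p = 0.00421) and -1.06 ± 0.12 (adjusted p = 2.06e-04). apoda.1 lies within the annotated span of apoda.2, so the assignment of its probe is uncertain. apof, known in human plasma as an inhibitor of lipid transfer, was higher by 0.97 ± 0.11 (adjusted p = 2.26e-04), and unscaled by 0.42 (adjusted p = 0.0601).

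Partners of assembly and export from the endoplasmic reticulum were mostly not called. Of 18 tested, 6 were higher in mutants (29.9% of all named genes), 1 lower (27.8%) and 11 did not pass, with a median of 0.16. The count of higher genes was 3 without mutant replicate 3 and 3 without sibling replicate 2, and unscaled 0 were higher and 7 lower (limma, 0 higher also at an unadjusted p under 0.05). The endoplasmic reticulum scramblase tmem41b differed by 0.49 ± 0.10 (limma adjusted p = 0.00425, unscaled -0.06), and the coat protein gene sec31a by 0.68 ± 0.15 (adjusted p = 0.00479, unscaled 0.14). mia3, whose product helps load bulky cargo into coated vesicles, differed by 0.28 ± 0.08 (adjusted p = 0.0125), but by 0.03 (adjusted p = 0.823) with the mean of all its probes, and by -0.26 unscaled. The lower gene was cideb, a droplet protein of liver very-low-density lipoprotein lipidation (-0.54 ± 0.15, adjusted p = 0.0153, -0.33 with normexp). Of 2 genes named after their values were seen, the mttp partner p4hb differed by 0.18 ± 0.13 (adjusted p = 0.272, 0.59 with quantile scaling at adjusted p = 0.00799, and -0.37 unscaled) and the chylomicron export GTPase sar1b by -0.13 ± 0.18 (adjusted p = 0.557, unscaled -0.68 with adjusted p = 0.0490).

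Genes that supply the lipid cargo leaned lower in the mutants. Of 16 tested, 9 were lower (27.8% of all named genes), 2 higher (29.9%) and 5 did not pass, with a median of -0.77. Unscaled, 12 were lower and 0 higher (limma, 0 also at an unadjusted p under 0.05). The fatty acid translocase cd36 differed by -2.47 ± 0.40, 5.55-fold lower in mutants (limma adjusted p = 0.00114). The fatty acid binding protein fabp1a and the acyl-CoA synthetase acsl5 differed by -2.93 ± 0.54 (adjusted p = 0.00214) and -2.02 ± 0.36 (adjusted p = 0.00188). The monoacylglycerol acyltransferase mogat3b had no mutant array well above background either, and lay at least 2.04-fold lower in mutants (adjusted p = 0.0184). It passed the filter through the sibling arrays alone, and without it 8 of 15 were lower. soat1, which esterifies cholesterol, was higher by 0.71 ± 0.12 (adjusted p = 0.00120), by the mean of all its probes the difference was -0.14 (adjusted p = 0.645), and unscaled 0.16 (adjusted p = 0.352). The enterocyte markers moved with this list too, by the counts given above, and their part in it was not tested.

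Of 21 receptors and their regulators tested, 5 were higher in mutants, 7 lower and 9 did not pass. The share called was close to the 57.6% of all named genes. The median was -0.23, and unscaled 1 was higher and 12 lower. mylipb, a ubiquitin ligase that directs low-density lipoprotein receptors to degradation in mammals, differed by -1.31 ± 0.13 (limma adjusted p = 1.24e-04). lrp1ba, a large lipoprotein receptor, was higher by 0.77 ± 0.10 (adjusted p = 4.55e-04, unscaled 0.23 and not passed). The scavenger receptor stab2 and the lipolysis-stimulated receptor lsr differed by -0.91 ± 0.13 (adjusted p = 5.51e-04) and -0.83 ± 0.11 (adjusted p = 4.70e-04, -0.41 with normexp).

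Plasma lipases, transfer proteins and lipid efflux genes leaned higher, with 9 of 16 tested higher in mutants (29.9% of all named genes), 4 lower (27.8%) and 3 not passed. The median was 0.70, and unscaled 5 were higher and 5 lower. The lipoprotein lipase gene lpla differed by 1.44 ± 0.14 (limma adjusted p = 1.32e-04) and the hepatic lipase gene lipca by 1.14 ± 0.12 (adjusted p = 1.67e-04). The cholesterol exporter abcg1 was higher by 0.99 ± 0.12 (adjusted p = 2.95e-04), and the paraoxonase gene pon2 differed by -0.71 ± 0.09 (adjusted p = 3.20e-04).

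Transcription factors of liver and gut lipid genes were higher in 14 of 27 tested (29.9% of all named genes), lower in 4 (27.8%) and not passed in 9. The median was 0.44, and unscaled 4 were higher and 7 lower. nr1h5, a nuclear receptor related to the bile acid receptor, was higher by 1.83 ± 0.16 (limma adjusted p = 9.71e-05). The coactivator ppargc1a was higher by 1.11 ± 0.11 (adjusted p = 1.57e-04), onecut1 by 1.41 ± 0.14 (adjusted p = 1.57e-04) and prox1a by 1.03 ± 0.11 (adjusted p = 1.71e-04). Of those known to drive apolipoprotein genes and named after their values were seen, creb3l3a differed by 0.88 ± 0.23 (adjusted p = 0.0109, unscaled 0.33) and creb3l3b by 0.40 ± 0.10 (adjusted p = 0.0101, unscaled -0.14). hnf4a differed by 0.09 ± 0.25 (adjusted p = 0.789), with normexp by 0.31 (adjusted p = 0.0348), and unscaled by -0.46 (adjusted p = 0.189). The 4 lower factors were also named after their values were seen. cebpa differed by -1.58 ± 0.19 (limma adjusted p = 3.35e-04) and was above background in 2 of 4 mutant pools. gata5 differed by -1.07 ± 0.26 (adjusted p = 0.00851), srebf2 by -0.94 ± 0.22 (adjusted p = 0.00716) and hnf4g by -0.60 ± 0.15 (adjusted p = 0.00942).

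**Figure D4:**
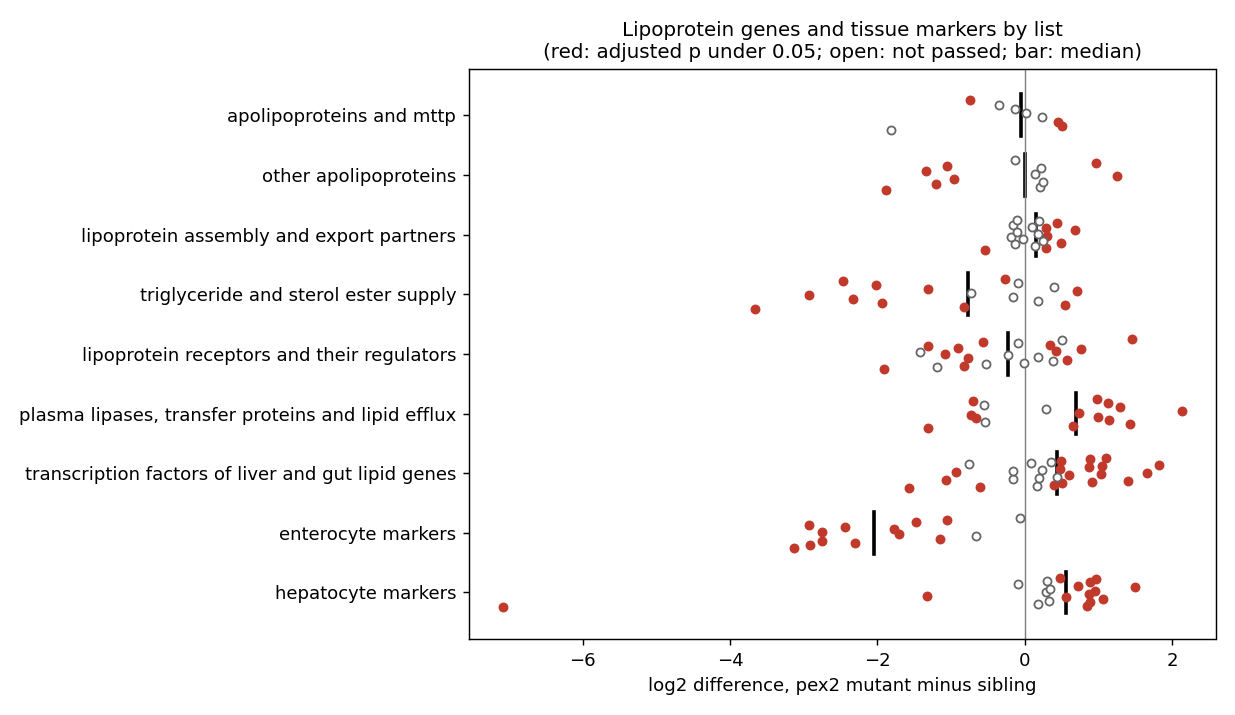
Mutant minus sibling log2 difference (horizontal axis) of every tested gene of each list; red points have an adjusted p under 0.05, open points did not pass, and bars are medians. The medians run from -2.04 for enterocyte markers to 0.70 for plasma lipases, transfer proteins and lipid efflux, with the apolipoproteins and mttp at -0.05.

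Markers of other tissues were measured in the same whole-body RNA. All 9 whole-body markers, of muscle, skin, lens, blood, pancreas, brain and bone, had a kept probe. Of these, 1 was higher in mutants (29.9% of all named genes), 4 were lower (27.8%) and 4 did not pass, and among 4 tested adipocyte markers 2 were higher and 2 lower. The summed level of those 4 was 20.1 to 29.4 in mutant pools and 65.8 to 79.6 in sibling pools. That sum is made up mostly of cfd, which differed by -1.75 ± 0.15. The other lower gene, adipoqb, differed by -2.90 ± 0.72 (limma adjusted p = 0.00915, -0.86 with normexp). It was above background in 2 of 4 mutant pools. lipeb and cidec were the 2 called higher (0.62 ± 0.12 and 0.50 ± 0.14). Unscaled, 0 of the 4 were higher and 2 lower, with lipeb at 0.08 (limma adjusted p = 0.654) and cidec at -0.04 (adjusted p = 0.858). The part of these tissue markers in the values of the apolipoprotein genes was not tested.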

How the data were processed

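Total RNA of 8 whole-body pools was hybridised to 1-colour Agilent arrays. The deposited intensity is the processed signal of Agilent Feature Extraction 10.7.3.1, background-subtracted, per the file headers. All arrays share 1 slide and 1 scan. From it, spots flagged as outliers (1099 of 61657) were left out, log2 values of spots were averaged per probe, and each array's 75th percentile was subtracted. A probe was kept where at least 4 of the 8 arrays measured it well above background. limma 3.58.1 in R 4.3.3 fitted genotype over all kept probes. A gene was read by its brightest kept probe, and 61.8% of probes had a name through unversioned RefSeq accessions. The authors' deposited value table is on a log2 scale. It was compared with values computed in the same way but with outlier spots kept, centred on each probe's median. Per array, 99.4% to 99.5% of values lay within 0.01.

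Pairs of members were compared by exact permutation of the pools. Members and lists were chosen with earlier results of these data known. Named genes were, per list, up to 4 called genes of smallest adjusted p, and the 3 profiles nearest to 2 members; the others were chosen after their values were seen. Alternatives were normexp background correction (offset 50, on spot median signals in place of spot means), quantile and median scaling, other filters, the deposited table, a trended robust fit, array weights, blocks by replicate number or slide row, the mean of a gene's probes, each pool left out, and unscaled values. The main fit did not pair the pools by replicate number. The fit was tested on simulated data.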

Additional observations from a re-analysis of the deposited data

Results flagged for a closer look

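In groups of 4 pools, 6 of 136 gene-by-genotype checks had 1 pool far from the other 3, and chance alone gives about 5%. No apolipoprotein gene or mttp among the 8 measured members was among them. On the log2 scale relative to the array's 75th percentile, apodb read 0.98 in mutant pool 2, with the other mutant pools between -0.36 and -0.15. tmem41b read 0.88 in mutant pool 4, with the others between 1.14 and 1.19. prox1a read 0.18 in mutant pool 1, with the others between 0.50 and 0.52. plat read 0.39 in sibling pool 1, with the others between 0.65 and 0.67. chia.1 read 5.21 in sibling pool 2, with the others between 5.39 and 5.40. fabp10a read 7.31 in mutant pool 4, with the others between 7.71 and 7.76.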

How the results depend on the processing

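The number of arrays, 4 against 4, limits the precision. The count of members lower in mutants was 1, but 2 with normexp background correction, 2 with probes above background on all 8 arrays, 2 with array weights and 2 with slide row as a block, in each case through apoa4b.2 (-1.85, -1.82, -1.95 and -1.82), and 0 with quantile scaling (limma, 0 also at an unadjusted p under 0.05). Unscaled, 16072 of the 29935 kept probes were called, 16.3% of these higher and the rest lower. In that setting 0 members were higher (limma, 0 also at an unadjusted p under 0.05) and 4 lower. The 4 lower were apoa4b.2 at -2.36, apoa4b.1 at -1.29, apobb.1 at -0.90 and apoa1a at -0.52. Also unscaled, apoa1b at -0.092 and apoa2 at -0.036 did not pass. By construction that setting leaves the brightness of the arrays in the values. With 1 pool left out, 1 to 2 members were higher and 0 to 2 lower, and 15557 to 18161 probes were called. The pair differences then ran from -0.56 to -0.38 (apoa1a minus apoa1b), -0.62 to -0.38 (apoa1a minus apoa2) and -0.71 to -0.51 (apobb.1 minus mttp), and the assembly partners that were higher numbered 3 to 6. apoa2 was called in every planned setting, with the lowest value, 0.28, under quantile scaling. With all probes of each gene averaged, soat1 turned to -0.14. With the replicate number as a block, 16814 probes were called, against 17534 without it, and 2 members were higher and 1 lower. With the genotype mean of each probe subtracted, same-numbered pools correlated at -0.02 to 0.18. The labels do not say whether an equal number marks a pair, and these values cannot decide it. Of 1195 alternative values of the 60 genes picked beside the members, the unscaled ones left out, 1183 kept their side of the threshold and 1180 also their direction. Direction changed in 4, for soat1, apoc2 and hnf4a. Unscaled, 16 of 54 calls were lost, all of them genes called higher. Where a call changed, the cause was not tested.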
